A study of Mus musculus with 2 samples.

Results

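The genes followed here encode 8 parts of insulin and insulin-like growth factor (IGF) signalling in adult mouse cortex and were chosen by symbol from the annotation. They are the ligand gene Igf1, the receptor genes Insr and Igf1r, the receptor substrate genes Irs1 and Irs2, and the IGF binding protein genes Igfbp4, Igfbp5 and Igfbp7, or 8 of 55536 annotated genes. Left cerebral cortex was taken from female B6CASTF1/J mice, a cross of C57BL/6J and CAST/EiJ, at 8 to 10 months of age. Total RNA depleted of ribosomal RNA (300 ng a library, with ERCC spike-ins added) was sequenced from 2 animals, which form the only group, and the labels name no treatment. Replicate 1 is animal 1 and replicate 2 is animal 5, although the labels list the same donor for both. Since each animal gave a single library, the animals can be set side by side but not tested, and a counting error covers the sampling of reads, not variation among mice.

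The libraries held 28327434 and 30234441 expected counts. Cortical excitatory neuron markers were all present, 5 of 5, with Slc17a7, the vesicular glutamate transporter gene of cortex, at 452.2 and 487.5 TPM. Markers of striatum, a neighbouring region, were present too, with summed levels of 610.0 and 681.4 TPM over 5 genes.

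Insulin and IGF1 bind related tyrosine kinase receptors at the cell surface. The activated receptors phosphorylate the IRS substrates, which recruit PI3 kinase and switch on AKT; AKT in turn restrains FOXO transcription factors and releases the mTOR branch of growth control. IGF binding proteins hold IGFs outside the cell, and proteases free the ligand by cutting them. In brain, IGF1 is known for its part in neuronal growth and survival, and insulin arrives mainly from the blood.

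In mm10 with GENCODE M21, all 8 members are protein-coding genes. Igf1 (ENSMUSG00000020053.18) lies at chr10:87858265-87937042 on the plus strand. The receptor genes are Insr (ENSMUSG00000005534.10), at chr8:3122061-3279617 on the minus strand, and Igf1r (ENSMUSG00000005533.10), at chr7:67952827-68233668 on the plus strand. The substrate genes Irs1 (ENSMUSG00000055980.2, chr1:82233101-82291416) and Irs2 (ENSMUSG00000038894.7, chr8:10984681-11008458) are both on the minus strand. Igfbp4 (ENSMUSG00000017493.12) lies at chr11:99041244-99054392 on the plus strand. Igfbp5 (ENSMUSG00000026185.8, chr1:72857932-72874884) and Igfbp7 (ENSMUSG00000036256.13, chr5:77349240-77408041) are on the minus strand.

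Short sequences define the receptor and ligand isoforms compared here. Insr carries a short exon of 36 nt at chr8:3181702-3181737 (mm10, minus strand), whose skipping separates receptor isoform A, without it, from isoform B. Capitals mark that exon, with 20 nt of the neighbouring exons on either side, read from the GENCODE M21 transcripts.
Insr-203: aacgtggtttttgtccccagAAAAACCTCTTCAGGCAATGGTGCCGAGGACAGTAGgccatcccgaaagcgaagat
Insr-201: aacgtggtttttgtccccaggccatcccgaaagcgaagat
Igf1 has a short exon of 52 nt at chr10:87915298-87915349 (mm10, plus strand). Its length is not a multiple of 3, so inclusion changes the reading frame of the E peptide, the tail that is cut from the IGF1 precursor.
Igf1-203: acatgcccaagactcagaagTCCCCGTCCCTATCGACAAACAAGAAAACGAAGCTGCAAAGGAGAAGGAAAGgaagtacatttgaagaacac
Igf1-202: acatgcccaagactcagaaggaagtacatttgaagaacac

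The start regions of Irs1, Irs2 and Irs4 held a like stretch, shown because no other member with a start window had either motif. Capitals mark CACGTG, the E-box of basic helix-loop-helix factors, and TGTTTTG, a form of the insulin response element. The stretches of 60 bases lie upstream of the RefSeq start, on the minus strand of GRCm38.p6: chr1:82291515-82291574 for Irs1, chr8:11008934-11008993 for Irs2 and chrX:141725332-141725391 for Irs4, a further IRS gene that is not a member. The window of Irs3, the remaining IRS gene, held neither motif.
Irs1: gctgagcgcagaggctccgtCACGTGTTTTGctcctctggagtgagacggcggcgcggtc
Irs2: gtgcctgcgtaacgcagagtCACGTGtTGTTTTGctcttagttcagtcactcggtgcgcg
Irs4: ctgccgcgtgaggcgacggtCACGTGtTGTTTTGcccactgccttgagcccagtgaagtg
In the stretch of Irs1 the motifs overlap by their shared TG, whereas in Irs2 and Irs4 1 base separates them. Both motifs were searched on both strands in 32851 windows of 250 bases before to 50 after a RefSeq start. CACGTG was present in 7.15% of windows and TGTTTTG in 6.28%. Both occurred within 5 bases of each other, or overlapping, in 9 windows (0.0274%), which belong to 8 genes. Of the 7 members with a window, Irs1 and Irs2 held this arrangement, and the window of Irs1 held another copy of TGTTTTG elsewhere. The motifs were chosen after the sequences had been read, and a match of letters is a description, not a binding site.

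Each of the 8 members reached at least 1 TPM in replicate 1 and in replicate 2, as did 26.8% of annotated genes. TPM is the share of all transcripts after division by length, so it can be compared between genes. Levels come from the deposited gene table (the first table) unless the second table, a separate deposited estimate per transcript, is named. Members took 16934 estimated counts in replicate 1 and 15936 in replicate 2. The order of mean levels was Igfbp4, Igfbp5, Irs2, Insr, Igf1r, Igfbp7, Irs1 and Igf1. From Igfbp4 down to Igf1r, each neighbouring pair differed by less than the sum of its SDs. The steps from Igf1r to Igfbp7, from Igfbp7 to Irs1 and from Irs1 to Igf1 were larger than that sum.

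**Figure D1:**
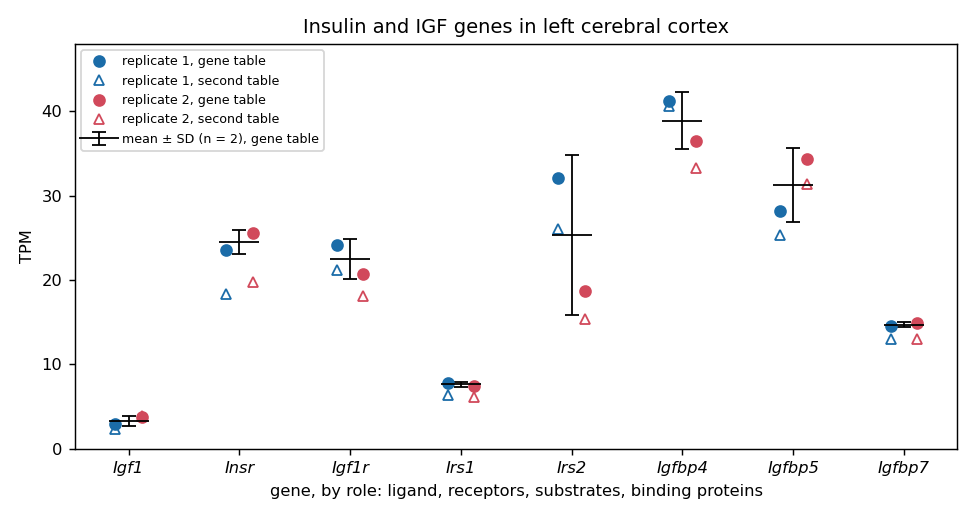
Level (TPM, linear axis) of each member in both libraries, with circles for the gene table, triangles for the second table and bars for mean ± SD (n = 2). Irs2 has the widest gap between animals, 32.1 against 18.7 TPM, while Irs1 and Igfbp7 nearly coincide.

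Igf1, the ligand gene, had the lowest level of the 8. It stood at 2.90 TPM in replicate 1 and 3.76 TPM in replicate 2 (3.33 ± 0.608, SD, n = 2), from 280 and 312 counts. The libraries were close on counts, with a log2 difference (replicate 2 minus replicate 1, scaled by TMM) of 0.02 and a counting SE of 0.12. On the TPM scale the log2 difference was 0.37, and the effective length by which the gene's counts were divided was 5328 nt in replicate 1 and 4397 nt in replicate 2. Igf1-208, a model of 510 nt, had 0.22 counts in replicate 1 and 9.46 in replicate 2, yet 32.5% of the gene's TPM in replicate 2. The deposited credibility intervals of the gene overlapped, at 2.74 to 4.57 TPM and 3.02 to 5.14 TPM.

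Most Igf1 reads were assigned to 1 model. Igf1-202, which starts at the upstream first exon and skips the 52 nt exon shown above, held 93.0% of Igf1 counts in each library. It is the longest Igf1 model, at 7052 nt, and held less of the TPM, 71.3% in replicate 1 and 58.8% in replicate 2. The second table gave it 74.4% and 49.3% of TPM. Igf1-202 runs to chr10:87937042, whereas every other Igf1 model ends by chr10:87931801. Reads past that point could only be assigned to Igf1-202, so its share of counts does not measure exon skipping or first exon use. Transcripts that contain the bases of the 52 nt exon had 16.4 of 280 counts in replicate 1 and 21.8 of 312 in replicate 2, or 5.84% and 7.0%. Of these, Igf1-201 ends at chr10:87915894, past the exon, and Igf1-208 ends at its last base. Only Igf1-203 (10.16 and 2.78 counts) and Igf1-206 (2.08 and 0 counts) run on to a later exon. Per length, all transcripts with these bases took 24.1% and 41.1% of Igf1 TPM, and 21.1% and 50.7% in the second table. Transcripts that start at the downstream first exon had 3.34% and 6.11% of counts. Each minor form thus rests on few reads. In the second table transcripts with the bases of the 52 nt exon took 3.51% and 6.74% of counts.

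Other ligands differed widely in level. Igf2, the second IGF ligand, stood at 38.6 and 47.1 TPM, above Igf1 in both animals. Its log2 difference of 0.16 (counting SE 0.0544) lay within 1.2-fold, the size of difference used here as a mark, with no test behind it. With spike-in scaling Igf2 was past that mark, at 0.44. Ins1 and Ins2, the mouse insulin genes, had 0 counts in both libraries, where 3 counts would equal 0.165 to 0.414 TPM.

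On gene totals, the receptor genes Insr and Igf1r were expressed at like levels, and their order changed between the animals. Insr, the insulin receptor gene, had 23.6 TPM in replicate 1 and 25.6 in replicate 2 (24.6 ± 1.43, SD, n = 2). Igf1r, the gene of the receptor with high affinity for IGF1, had 24.1 and 20.8 TPM (22.4 ± 2.38). The ratio of Insr to Igf1r was 0.976 in replicate 1 and 1.23 in replicate 2. The second table gave 0.865 and 1.09. The gene totals include models with retained introns, at 39.6% and 40.45% of Insr TPM and 11.95% and 14.7% of Igf1r TPM. Of the long coding transcripts alone, Insr-201 had 13.7 and 14.4 TPM and Igf1r-201 21.2 and 17.7 TPM. On these, Igf1r was above Insr in both animals. Insr differed by a log2 of 0.00 between the animals (counting SE 0.0389; 2631 and 2890 counts). Igf1r was 1.26-fold lower in replicate 2 (log2 −0.33, counting SE 0.0316; 4471 and 3898 counts), but within 1.2-fold with spike-in scaling (−0.06).

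Few Insr reads were assigned to the form with the 36 nt exon. Insr-201, the full-length coding transcript, lacks that exon and had 2307 and 2513 counts. Insr-203, a partial model that includes the exon, had 5.13 and 9.01 counts; it was singled out after its structure and values were seen. It is 672 nt long, against 9355 nt for Insr-201, and no full-length model with the exon is annotated. Reads of isoform B from outside Insr-203 could thus be assigned to Insr-201, whose counts are not those of isoform A alone. Per length, Insr-203 stood at 0.49 TPM in replicate 1 (deposited credibility interval 0.0216 to 1.74) and 0.84 TPM in replicate 2 (0.134 to 2.20). Set against Insr-201 alone, that is 3.44% and 5.51% of TPM, and 2.92% and 4.18% in the second table. The model differs from Insr-201 by 36 nt, so the estimate rests on the few reads that touch the exon. The long retained-intron model Insr-204, which holds the exon and parts of the introns beside it, had 87 and 102 counts.

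Total RNA holds unspliced as well as spliced transcripts, and some receptor reads were assigned to models with retained introns. Insr-202, a retained-intron transcript of 1675 nt over the first exons, had 34.4% and 35.05% of Insr TPM but 8.80% and 9.21% of its counts. It differs from Insr-201 by 278 nt, so its share depends on how reads over shared exons were divided. All retained-intron models together had 12.1% and 12.7% of Insr counts. For Igf1r, 5 such models had 2.51% and 3.05% of counts. The coding transcript Igf1r-201, 11409 nt long with 21 exons, had the rest.

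**Figure D2:**
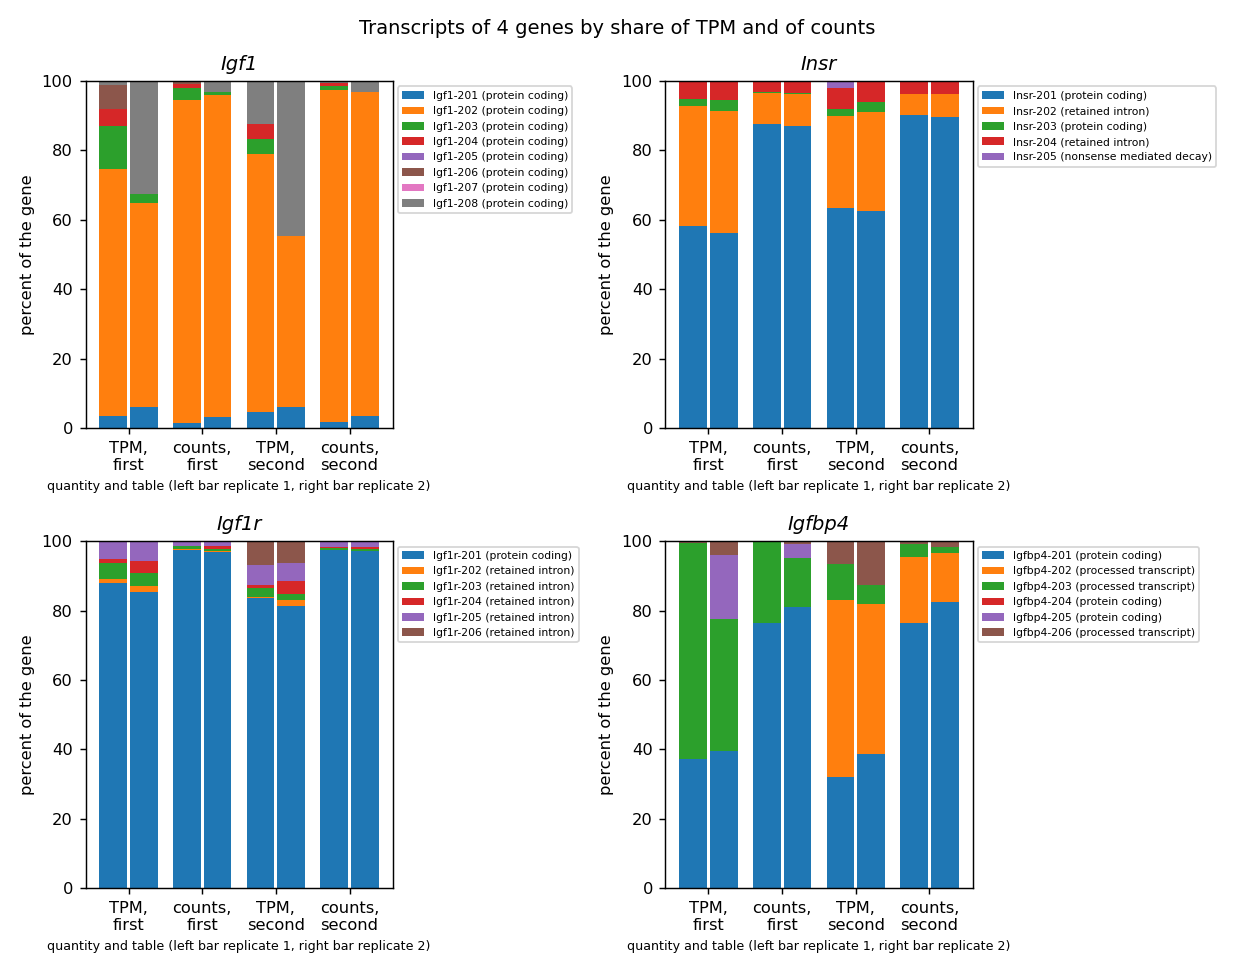
Stacked bars give the percent of each gene's TPM or counts held by each annotated transcript, for Igf1, Insr, Igf1r and Igfbp4, in the first and second tables (left bar replicate 1, right bar replicate 2). Short models hold far more of the TPM than of the counts, and Igfbp4 changes its main noncoding model between tables.

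Among the members, Irs2 differed most between the animals. Irs2, a substrate that links both receptors to PI3 kinase, stood at 32.1 TPM in animal 1 and 18.7 TPM in animal 5 (25.4 ± 9.49, SD, n = 2), from 3623 and 2191 counts. It was 1.82-fold lower in replicate 2 (log2 −0.86, counting SE 0.0390). That is larger than the absolute difference of 97.9% of the 14122 genes whose counts averaged 50 or more. The deposited intervals did not overlap, at 29.9 to 31.9 TPM in replicate 1 and 17.3 to 18.8 in replicate 2. These intervals surround the posterior mean (30.9 and 18.0 TPM for Irs2) and need not contain the TPM itself. Irs2 stayed lower with every scaling tried, from −0.59 with spike-ins to −0.87 in the second table.

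Irs1, the paralogous substrate, did not share that difference. It had 7.82 TPM in replicate 1 and 7.46 in replicate 2 (7.64 ± 0.255, SD, n = 2), from 1283 and 1272 counts. Its log2 difference was −0.15 with a counting SE of 0.0571, and 0.13 with spike-in scaling, so its direction depends on the scaling. The ratio of Irs2 to Irs1 was 4.10 in replicate 1 and 2.50 in replicate 2, the same to the first decimal in the second table. Each gene has 1 annotated transcript of 2 exons, so these levels involve no division among models. The coding part is 40.4% of Irs1-201 and 62.7% of Irs2-201. Irs4, with the start stretch shown above, had 89 and 31 counts, or 0.79 and 0.27 TPM (log2 −1.63, counting SE 0.301).

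Activity-induced genes were lower in the same library as Irs2. All 5 on the list (Arc, Fos, Egr1, Npas4 and Nr4a1) were lower in replicate 2, with summed levels of 309.7 and 72.7 TPM. Choroid plexus markers were lower too: 3 of 3 measured markers, with a summed level of 180.5 and 60.4 TPM over 6 listed and none at 0. The 5 activity-induced genes and these 3 markers were each more than 1.2-fold lower, as were 13.1% of all genes measured. The part of both lists in the Irs2 difference was not tested. Excitatory neuron markers summed to 628.5 and 689.2 TPM, with a median log2 difference of 0.03 over 5 genes. Of these, 4 were above 0 and Neurod6 was more than 1.2-fold lower (31.99 and 23.05 TPM, log2 −0.55). In bulk tissue, fewer cells of a type and less RNA per cell cannot be told apart.

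Igfbp4 and Igfbp5, binding protein genes, had the highest mean levels of the members. Igfbp4, which inhibits IGF action until it is cleaved, had 41.3 TPM in replicate 1 and 36.5 in replicate 2 (38.9 ± 3.36, SD, n = 2), from 1363 and 1255 counts. It was 1.19-fold lower in replicate 2 (log2 −0.26, counting SE 0.0564), just inside 1.2-fold, and level with spike-in scaling (0.02). Igfbp5, which binds IGFs and extracellular matrix, went the other way, with 28.1 and 34.4 TPM (31.3 ± 4.43) from 3015 and 3832 counts. Its log2 difference was 0.21 (counting SE 0.0351), or 1.16-fold higher in replicate 2, and the deposited intervals did not overlap. With spike-in scaling it was 0.49. Igfbp5 came close to Igfbp4 in replicate 2, at a ratio of 0.942, against 0.682 in replicate 1.

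Igfbp7, a binding protein of low IGF affinity that is known from vessel walls, differed little between the animals with TMM scaling. It had 14.5 and 14.9 TPM (14.7 ± 0.276, SD, n = 2), from 268 and 286 counts, with a log2 difference of −0.04 (counting SE 0.123), and 0.23 with spike-in scaling. The 95% counting interval of that TMM difference ran from −0.28 to 0.20, so at this depth the reads did not settle a direction. Endothelial markers summed to 103.3 and 104.2 TPM over 6 genes, of which 2 were more than 1.2-fold higher and 2 lower. Mural markers summed to 65.6 and 78.5 TPM over 7 listed, and all 6 measured were above 0 in log2 difference. The listed mural gene with too few counts, Kcnj8, went the other way (1.10 and 0.98 TPM, log2 −0.29). Meningeal fibroblast markers summed to 28.0 and 35.1 TPM, 4 of 6 measured markers being more than 1.2-fold higher, as were 14.3% of all genes measured. No marker of these 3 lists was at 0, and their part in the binding protein levels was not tested.

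The division of Igfbp4 reads among transcripts differed between the tables. Igfbp4-201, its full-length coding transcript, had 76.5% and 81.0% of counts but 37.3% and 39.6% of TPM. Alone it stood at 15.4 and 14.45 TPM, a level near that of Igfbp7. The first table placed 319 and 179 counts on the noncoding Igfbp4-203, of which 28 nt lie outside Igfbp4-201. The second table placed 276 and 197 counts on Igfbp4-202 instead, of which 147 nt lie outside. Before scaling, coding models together had 1043 and 1066 counts in the first table, and Igfbp4-201 had 1124 and 1152 in the second. The lower gene count of replicate 2 thus lay in noncoding models, whose reads the tables divided differently. The tables gave close gene totals, with means of 38.9 and 37.0 TPM. Igfbp5 was assigned wholly to its coding transcript in the first table, while the second gave 8.50% and 7.77% of counts to the noncoding Igfbp5-202.

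The members were then read against all genes. Of the 8, 2 differed more than 1.2-fold (Igf1r and Irs2), both lower in replicate 2. On the TPM scale the members past 1.2-fold were instead Igf1 (log2 0.37) and Igfbp5 (0.29), higher, and Irs2 (−0.78), lower, with Igf1r at −0.22. Over the 14122 genes, 27.4% passed that fold, 14.3% higher and 13.1% lower. Intervals were apart for 3 members (Igf1r, Irs2 and Igfbp5) and for 19.8% of genes. The members' median log2 difference was −0.10, against −0.02 for all genes. Spike-in scaling raised the median of all genes by 0.28, to 0.25, which is itself close to 1.2-fold. With that scaling 3 members were more than 1.2-fold higher (Igf1, Insr and Igfbp5) and 1 lower (Irs2). The share of all genes past 1.2-fold was not counted with spike-ins, so these members cannot be set against it.

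**Figure D3:**
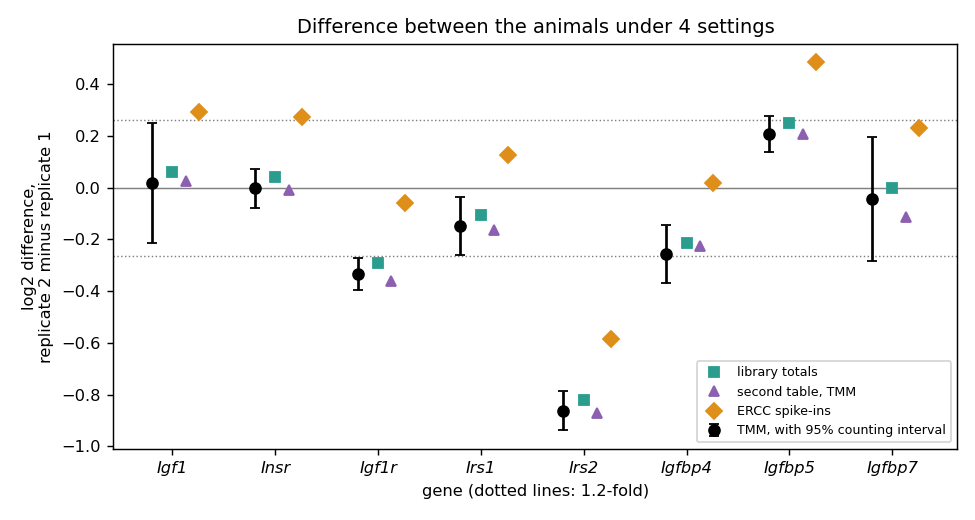
Log2 difference between the animals for each member (replicate 2 minus replicate 1), with TMM scaling and its 95% counting interval, library totals, the second table and spike-ins. Irs2 lies below −0.5 in all 4 settings, whereas spike-in values sit above the rest for every member.

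The wider pathway was described with a list of 61 further genes by role, of which 47 were detected and 50 had enough counts for a difference. Among the 50, 15 (30.0%) passed 1.2-fold, near the share of all genes, 2 higher and 13 lower in replicate 2, with a median log2 difference of −0.11. With spike-in scaling the split was 16 higher and 3 lower, with no share of all genes past 1.2-fold counted beside it. Among all genes called, the share higher went from 52.3% to 94.1%. Of the 13 lower genes, Irs4, Ide and Pappa2 stayed more than 1.2-fold lower with spike-ins.

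The proteases and their inhibitors are described first. Ide, the insulin-degrading enzyme gene, had 29.0 and 18.1 TPM from 2030 and 1279 counts (log2 −0.80, counting SE 0.0515; −0.53 with spike-ins). Htra1, a secreted serine protease gene that can cleave binding proteins, had 92.0 and 73.7 TPM (log2 −0.43, counting SE 0.0393). Pappa2, an IGF binding protein protease gene, was low at 1.27 and 0.51 TPM (log2 −0.56, counting SE 0.201). Stc1, an inhibitor of such proteases, was low too (1.32 and 1.04 TPM, log2 −0.42, counting SE 0.217). All 4 measured genes, of 6 listed for this role, were more than 1.2-fold lower in replicate 2, where 13.1% of all genes were, and 2 of them with spike-in scaling. Deposited intervals were apart for Ide and Htra1 but not for Pappa2 and Stc1. The listed genes with too few counts went opposite ways, Pappa with 62 and 29 counts and Stc2 with 38 and 50. Among other binding proteins, Igfbp2 had 28.7 and 23.4 TPM (log2 −0.34, counting SE 0.0856). Igfbp3 had 3.66 and 3.15 TPM (log2 −0.29, counting SE 0.169), and its deposited intervals overlapped. With spike-in scaling Igfbp2 was at −0.07 and Igfbp3 at −0.02. Igf2r, the receptor that clears IGF2, had 12.3 and 13.0 TPM (log2 −0.03).

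Inside the cell, several abundant genes of the pathway were close between the animals. Gsk3a, a kinase that AKT inhibits, had 100.3 and 109.7 TPM (log2 0.05). Grb2, an adaptor to the RAS pathway, had 103.6 and 99.8 TPM, and Sh2b1, a receptor adaptor, 34.4 and 33.1 TPM. Pik3r2, a regulatory subunit of PI3 kinase, had 63.6 and 70.1 TPM. All 4 lay within 1.2-fold with TMM, but Gsk3a (0.33) and Pik3r2 (0.29) were past it with spike-in scaling.

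Several regulators lay outside that range with TMM scaling. Sgk1, a kinase activated by PI3 kinase and induced by glucocorticoids, stood 1.68-fold higher in replicate 2, with 35.8 and 67.5 TPM (log2 0.75, counting SE 0.0533). Ptpn1, a phosphatase that switches off the insulin receptor, had 29.3 and 21.6 TPM (log2 −0.41), and Eif4ebp2, a translation repressor under mTOR, 26.7 and 21.6 TPM (−0.44). Among FOXO genes, Foxo3 led at 33.2 and 41.8 TPM (0.19), while Foxo4 and Foxo6 were lower in replicate 2 (−0.48 and −0.35). Rheb, the activator of mTOR, had a log2 difference of −0.27, and Tsc2, its inhibitor, 0.00. Of the feedback inhibitors, Socs2 had 11.1 and 14.1 TPM (0.16), Sh2b3 10.9 and 9.08 TPM (−0.30), and Socs3 0.92 and 1.65 TPM from 41 and 67 counts (0.56, counting SE 0.286). With spike-in scaling Sgk1 (1.02) and Socs3 (0.83) stayed past 1.2-fold. Ptpn1 (−0.13), Eif4ebp2 (−0.16), Foxo4 (−0.21), Foxo6 (−0.08), Rheb (0.00) and Sh2b3 (−0.02) were then within it. Foxo3 (0.47), Socs2 (0.43) and Tsc2 (0.28) were past it in that setting only.

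**Figure D4:**
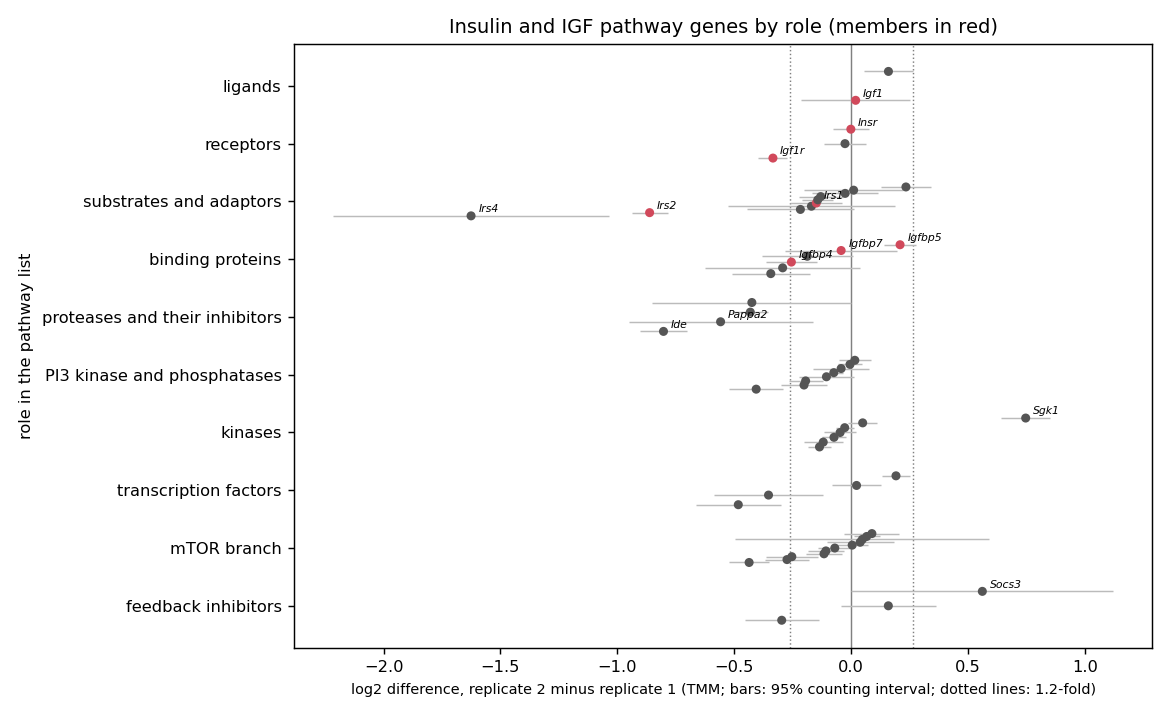
Log2 difference (replicate 2 minus replicate 1, TMM) of each measured pathway gene by role, with 95% counting intervals; members are red and dotted lines mark 1.2-fold. Irs2, Irs4 and Ide lie farthest to the left and Sgk1 farthest to the right, while most kinases cluster near 0.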

How the data were processed

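Total RNA-seq of 1 group of 2 libraries was analysed. The deposited readme names mm10 and GENCODE M21 for the tables; for aligner and counter, and for use of strand in counting, the sources used here give nothing. The first tables hold the authors' expected counts per gene and transcript, not normalized, and the second transcript tables their estimated counts. Deposited TPM values were scaled by the authors over all features. The deposited percent is a transcript's part of its gene's TPM, and the credibility bounds are deposited scores of unstated level. Totals were 28327434 and 30234441 expected counts; counting errors cover sampling of reads only.

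Expected counts were rounded and scaled over all genes with TMM in edgeR 4.0.16 (R 4.3.3), with a prior count of 1, for genes averaging 50 counts or more. Counting SEs come from the counts. The calculation was checked on simulated data. Alternatives were DESeq2 1.42.0 size factors, totals, spike-ins, a prior count of 5, 1.5-fold, TPM and the second table. All members are named; of each role, up to 2 genes with the highest TPM and 2 with the largest difference, plus ligands; and transcripts with 10% of TPM; some genes that this rule names are not reported here. Members, lists and tests were chosen with earlier results of these data known. Reads of CAST/EiJ sequence were assigned on the reference genome, and alleles were not analysed here.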

Additional observations from a re-analysis of the deposited data

How the results depend on the processing

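All 8 members were detected in the second table, with posterior mean TPM and in either library alone (8 to 8 without a replicate), and 7 of 8 at 5 TPM, where Igf1 missed. The count of members past 1.2-fold was 2 with TMM, DESeq2 size factors, totals, the second table, a prior count of 5 and no filter, 3 with TPM (Igf1, Irs2 and Igfbp5, without Igf1r), and 4 with spike-ins; at 1.5-fold it was 1 (Irs2). Pathway genes past 1.2-fold numbered 13 to 21, against 15. The share of all genes, 27.4%, was counted with TMM at 1.2-fold only, so counts under other settings have no such share beside them. No member past 1.2-fold reversed. Spike-ins moved the difference of all 8 members by more than counting error. Shares of transcripts depend most on the unit and table: Igfbp4-203 held 50.1% of TPM, 8.04% in the second table and 18.8% of counts, and Insr-201 57.3% of TPM and 87.3% of counts. The share of counts was added after the data were seen. Depth limits Igfbp7, Igf1 and the minor isoforms, with few counts each.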

Other observations

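Genes that overlap members on the opposite strand had few reads, except Polr2b. The processed transcript 9530052E02Rik overlaps the start of Irs2 by 609 nt and had 12 and 11 counts, while Irs2 had 3623 and 2191. Igf1os, which overlaps the first exons of Igf1, had 0 and 2 counts, and Gm9747, over the 3′ end of Irs1, had 0 in both libraries. Polr2b, a subunit gene of RNA polymerase II, shares 85 nt with the end of Igfbp7 and had 1522 and 1613 counts, with a log2 difference of −0.05.

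Igfbp2 and Igfbp5 are neighbours on chromosome 1 and differed in opposite directions between the animals, with log2 differences of −0.34 and 0.21. With spike-in scaling the values were −0.07 and 0.49.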
